A study of Saccharomyces cerevisiae with 4 samples.

Results

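Deletion strains of 40 genes of the budding yeast (Saccharomyces cerevisiae) proteasome were followed by their DNA tags on 4 two-colour arrays. The genes were listed by name: subunits of the base, the lid and the core, assembly factors, proteasome-binding proteins and RPN4, the transcription factor that drives proteasome gene expression. A spot was taken for a listed gene where the platform's gene symbol or a RefSeq synonym matched it. Spots were found for 39 of the 40 genes, and 37 of these had a value on all 4 arrays, out of 5288 strains so measured and 5325 strains with spots. RPN1, a scaffold subunit of the base, was not analysed here because no spot carried its name. RPN7 of the lid and the assembly factor HSM3 had no value on the cdc102-1 array at 30 degree, so they were left out of the tests.

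The proteasome is the protease that degrades proteins marked with ubiquitin. Its core is a barrel of alpha and beta rings, and the beta rings carry the protease sites. A regulatory particle caps the barrel: its base holds the Rpt ATPases, which unfold the substrate, and ubiquitin receptors, and its lid holds Rpn11, the enzyme that removes ubiquitin. Most subunits are essential for growth in yeast. Deletion of RPN9, RPN10, RPN13 or PRE9, of an assembly factor, of ECM29 or BLM10, or of RPN4 leaves a living haploid.

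All groups began from a pool of 5896 heterozygous diploid deletion strains, described as convertible to haploids, in which chromosomal CDC102 (a synonym of PSF2, which encodes a subunit of the GINS replication complex) had been disrupted with natMX. Each pool then carried a centromeric URA3 plasmid with the cdc102-1 allele or with wild-type CDC102, was sporulated, and grew for 2 days at 30 or 28 degree on minimal plates without uracil, with or without nourseothricin (Nat). Tags from plates without Nat, which held single and double mutants, were labelled with Cy5, and tags from Nat plates, which held double mutants, with Cy3. The groups were cdc102-1 at 30 degree, cdc102-1 at 28 degree, CDC102 at 30 degree and CDC102 at 28 degree, with 1 array each and therefore no replicates; titles were followed, although the text of both CDC102 samples also mentions the cdc102-1 pool.

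The value of a strain is its mean deposited log2 ratio of both dyes, less the median of the 5288 strains on that array, so that 0 is the median strain. The numerator of the ratio is not given in the sources used here. Cy5 over Cy3 is likely from the order of the labels, and a higher value would then mean relatively fewer tags from the plates that held only double mutants. Fewer cells and poorer amplification or labelling of a tag cannot be told apart. The SD over strains was 1.03 and 0.73 on the cdc102-1 arrays at 30 and 28 degree, and 0.77 and 0.65 on the CDC102 arrays, and any pair of arrays correlated over strains with Pearson r between 0.602 and 0.705. Most members had 1 spot for each of their 2 tags; RPN10 and RPN4 had 6 for each tag and RPN9 and BLM10 had 2. The labels describe no separate cultures. In the main fit, with plasmid and temperature as terms, the SE and p of a strain rest on 2 things. They are how far its plasmid difference changes between temperatures, and the spread of that change over all strains. A plasmid difference that truly depends on temperature would be counted as scatter, and the scatter may also be technical.

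The RPN10 deletion was the member with a higher ratio with cdc102-1 by at least 1 at both temperatures and the same sign in both tags. Rpn10 is a ubiquitin receptor of the base. Its deletion strain stood at 1.98 at 30 degree and 0.95 at 28 degree with cdc102-1, against -0.03 at 30 degree and -0.14 at 28 degree with CDC102. Both cdc102-1 values lay above both CDC102 values, as in 22.2% of all strains, and the CDC102 values stayed near the median strain. The ratio was thus higher with cdc102-1 by 2.01 at 30 degree and by 1.08 at 28 degree, with a mean difference of 1.55 ± 0.32 (SE of the additive limma fit over 4 arrays, 95% interval 0.57 to 2.52). In limma the unadjusted p was 0.014 and the p after Benjamini-Hochberg adjustment over 5288 strains was 0.553, so the difference did not pass the test. In size it ranked 53 of 5288 strains, and 9 among the 793 strains with at least 6 spots per tag.

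The repeat spots of RPN10 gave the spread of the measurement within an array. At 30 degree with cdc102-1 its first tag averaged 2.25 ± 0.18 and its second 1.71 ± 0.04 (SD over 6 spots). At 28 degree with cdc102-1 the tags averaged 0.52 ± 0.10 and 1.38 ± 0.07. With CDC102 all 24 spots lay between -0.34 and 0.14. Every RPN10 spot with cdc102-1 was therefore above every spot with CDC102, the lowest being 0.38. The tags differed on the cdc102-1 arrays by more than the spread of their repeat spots, and the first and second tag gave plasmid differences of 2.27 and 1.75 at 30 degree, and of 0.75 and 1.42 at 28 degree. The spots are repeat measurements of the same labelled tags and no replicates of the strain.

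**Figure D1:**
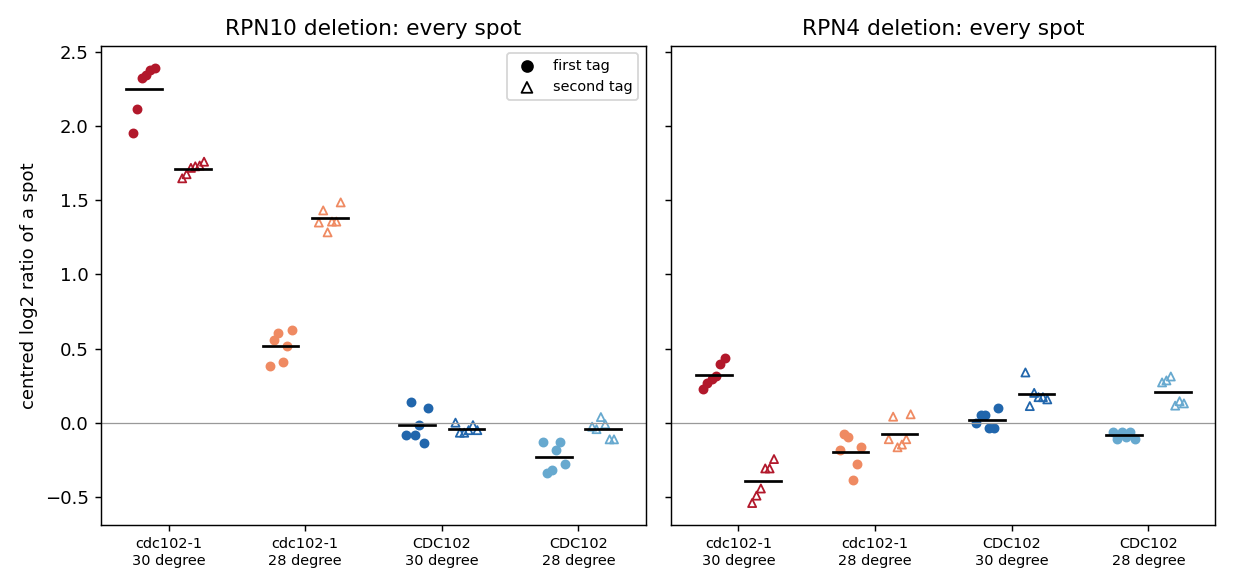
Centred log2 ratio (vertical axis) of every spot of the RPN10 and RPN4 deletions on each of the 4 arrays; filled circles are first-tag spots, open triangles second-tag spots, and black bars their means. RPN10 spots lie at 0.38 or above with cdc102-1 and at 0.14 or below with CDC102, while RPN4 spots stay between -0.54 and 0.43 on all arrays.

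RPN4, the other member with 6 spots per tag, had a mean over its tags close to the median strain on every array. Its values were -0.03 at 30 degree and -0.14 at 28 degree with cdc102-1, against 0.11 and 0.06 with CDC102. With cdc102-1 at 30 degree its tags lay on opposite sides of 0, at 0.32 ± 0.08 and -0.39 ± 0.12 (SD over 6 spots). The first and second tag gave plasmid differences of 0.30 and -0.58 at 30 degree. The mean plasmid difference of RPN4 was -0.17 ± 0.20 (SE, 95% interval -0.77 to 0.43). The interval includes 0 and ends below the difference measured for RPN10.

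The other ubiquitin receptor of the base on the arrays, RPN13, had the opposite sign. Its deletion had -0.82 at 30 degree and -0.36 at 28 degree with cdc102-1, against 0.13 and 0.11 with CDC102. The groups did not overlap, as in 19.8% of all strains in that direction, and the mean difference was -0.71 ± 0.24 (SE). The unadjusted limma p was 0.0517 and the adjusted p 0.575. All 4 tag differences were below 0, from -1.07 to -0.10.

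For the plasmid term the adjusted p was 0.05 or above in every member and in every other strain (0 of 37 members, 0% of all strains). At an unadjusted p under 0.05 limma gave 5 of 37 members, 3 higher and 2 lower with cdc102-1. Of all 5288 strains 8.74% reached that p, 5.35% higher and 3.39% lower. The count of members moved with the array left out. Fits without 1 array leave 1 array on a side and have plasmid as their only term. Temperature differences therefore enter them, and they cannot tell how steady the count is. The 5 members were RPN10, RPT2 and RPN8 with higher ratios and RPN3 and PRE4 with lower ratios, each with an adjusted p of 0.553 or, for RPN8, 0.564. All but RPN10 are essential. No double mutant is expected of an essential deletion, so the ratios of those strains are not a measure of one. The median plasmid difference over the 37 members was -0.09, against 0.01 over all strains. It was 0.07 without the CDC102 array at 28 degree, and 22 members were below 0 and 15 above.

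The RPT2 deletion lacks an ATPase of the base that helps open the gate of the core. It had -1.76 at 30 degree and -0.04 at 28 degree with cdc102-1, against -3.30 and -1.06 with CDC102, which is a mean difference of 1.28 ± 0.24 (SE). The tags did not share this: the first tag differed by 5.39 at 30 degree and 2.06 at 28 degree, and the second by -2.31 and -0.01. The first tag on the CDC102 array at 30 degree was at the lowest ratio that the rounding of the deposited values allows (0.01). The difference became -0.29 when ratios of 0.05 or less were left out and -1.17 with the second tag only.

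RPN8, a lid subunit that pairs with Rpn11, had -0.24 and -0.36 with cdc102-1 (30 and 28 degree), against -1.70 and -0.998 with CDC102. Its mean difference was 1.05 ± 0.30 (SE), but at 30 degree it came from the first tag (3.11, against -0.19 in the second) and at 28 degree from the second (1.25, against 0.02 in the first).

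RPN3 and PRE4 were the members with a lower ratio with cdc102-1 in both tags at both temperatures and an unadjusted limma p under 0.05. Both are essential, so the limit given above for ratios of essential deletions holds for them. RPN3, a lid subunit, had -0.32 and -0.80 with cdc102-1 (30 and 28 degree), against 0.62 and 0.35 with CDC102. Its groups did not overlap, as in 19.8% of all strains in that direction. The mean difference was -1.04 ± 0.21 (SE), and its tag differences lay between -1.34 and -0.53. PRE4, a beta-ring subunit, had -2.89 and -1.44 with cdc102-1, against -1.46 and -0.41 with CDC102. Its groups overlapped, since the cdc102-1 value at 28 degree was just above the CDC102 value at 30 degree; the mean difference was -1.23 ± 0.23, and its tag differences ran from -1.96 to -0.10.

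A mean plasmid difference of 1 or more was found for RPT2, RPT4, RPN8 and RPN10 and one of -1 or less for RPN2, RPN3 and PRE4, against 3.84% and 3.29% of all strains. Members whose tags had 1 sign at both temperatures were near the background share. Of the 29 members with both tags on all 4 arrays, 3 had a higher ratio with cdc102-1 throughout (RPN10, the lid subunit RPN12 and the assembly factor NAS6), against 16.3% of all strains. A lower ratio throughout was found for 4 (RPN3, RPN13, PRE4 and the assembly factor NAS2), against 13.9%. Values on both cdc102-1 arrays lay above both CDC102 arrays for 8 of 37 members and below them for 4, against 22.2% and 19.8% of all strains.

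**Figure D2:**
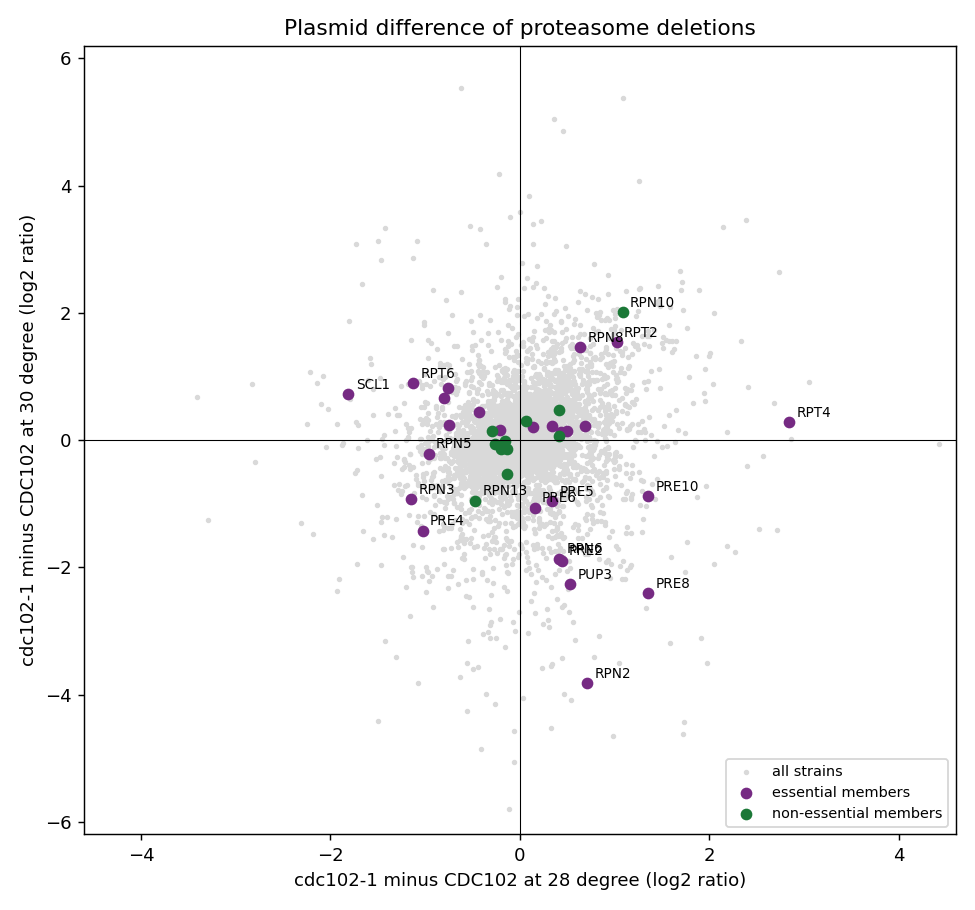
Difference in log2 ratio, cdc102-1 minus CDC102, at 28 degree (horizontal axis) and at 30 degree (vertical axis) for 26 essential members (purple), 11 non-essential members (green) and all 5288 strains (grey). RPN10 lies at 1.08 and 2.01 apart from the other non-essential members, while essential members scatter in all quadrants, RPN2 reaching -3.82 at 30 degree.

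Sizes at a single temperature, where 1 array stands on each side and no test exists, were spread in both directions. At 30 degree 3 of 37 members were higher with cdc102-1 by at least 1 on the log2 scale and 7 were lower, against 7.77% and 7.92% of all strains. At 28 degree the counts were 5 and 4, against 3.93% and 2.84%. RPN10 and RPT2 were higher by at least 1 at both temperatures, as were 1.32% of all strains, and PRE4 was lower at both, as were 0.681%. All 7 members that were lower at 30 degree are essential. Of these, 5 belong to the core (PRE2, PRE4, PRE6, PRE8 and PUP3), which holds 13 of the 26 essential members on all arrays. The others are RPN2 and RPN6. Of 43 deletions of essential genes in other complexes (described below), 12 were lower by at least 1 at 30 degree and 5 higher. At 28 degree 0 of these 43 were lower and 5 higher.

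Some large differences among essential members came from a single tag. RPN2, a scaffold of the base, had -2.25 at 30 degree and 0.39 at 28 degree with cdc102-1, against 1.58 and -0.32 with CDC102. Its second tag alone differed by -8.66 at 30 degree, where the first gave 1.01. Its mean difference was -1.55 ± 1.26 (SE) overall and 0.50 with the first tag only. RPT4, an ATPase of the base, had 0.41 and 0.21 with cdc102-1, against 0.13 and -2.64 with CDC102, a mean difference of 1.56 ± 0.73. Its first tag had no value on either 30 degree array, so those values are of the second tag only. That tag alone gave a plasmid difference of 0.28 (30 degree) and 2.17 (28 degree).

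The level of a strain, as opposed to its difference between plasmids, had a lower median in essential than in non-essential members on each of the 4 arrays. The median over the 26 essential members was -1.14 at 30 degree and -0.72 at 28 degree with cdc102-1, and -1.04 and -0.84 with CDC102. Over the 11 non-essential members it was -0.01 and -0.14 with cdc102-1, and 0.01 and 0.10 with CDC102. At or below -1 were 14 and 9 of the 26 with cdc102-1 at 30 and 28 degree, and 14 and 11 with CDC102, against 16.8%, 11.8%, 13.8% and 11.3% of all strains in that order, and 0 of the 11 on each array. The non-essential HSM3, left out of the 11 for a missing value, had -1.15 with cdc102-1 at 28 degree. Its values with CDC102 were -0.69 and -0.41 at 30 and 28 degree. The mean over 4 arrays was below 0 in 26 of 26 essential and 5 of 11 non-essential members. It was at or below -1 in 13 essential and 0 non-essential members, against 12.9% of all strains. A value below 0 on every array was found for 17 essential and 2 non-essential members (RPN9 and UMP1), against 27.6% of all strains. A haploid that lacks an essential gene does not grow on either plate, so no double mutant of these strains is expected, and their ratios are not a measure of one.

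The 43 measured deletions of essential genes in other complexes (chaperonin, RNA polymerases, exosome, coatomer and the translation factors eIF2 and eIF2B) were low as well. Their medians were -0.89 and -0.45 with cdc102-1 at 30 and 28 degree, and -0.63 and -0.89 with CDC102. Their mean over 4 arrays was below 0 in 39 of 43 and at or below -1 in 15. A low level was therefore shared by essential deletions outside the proteasome.

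**Figure D3:**
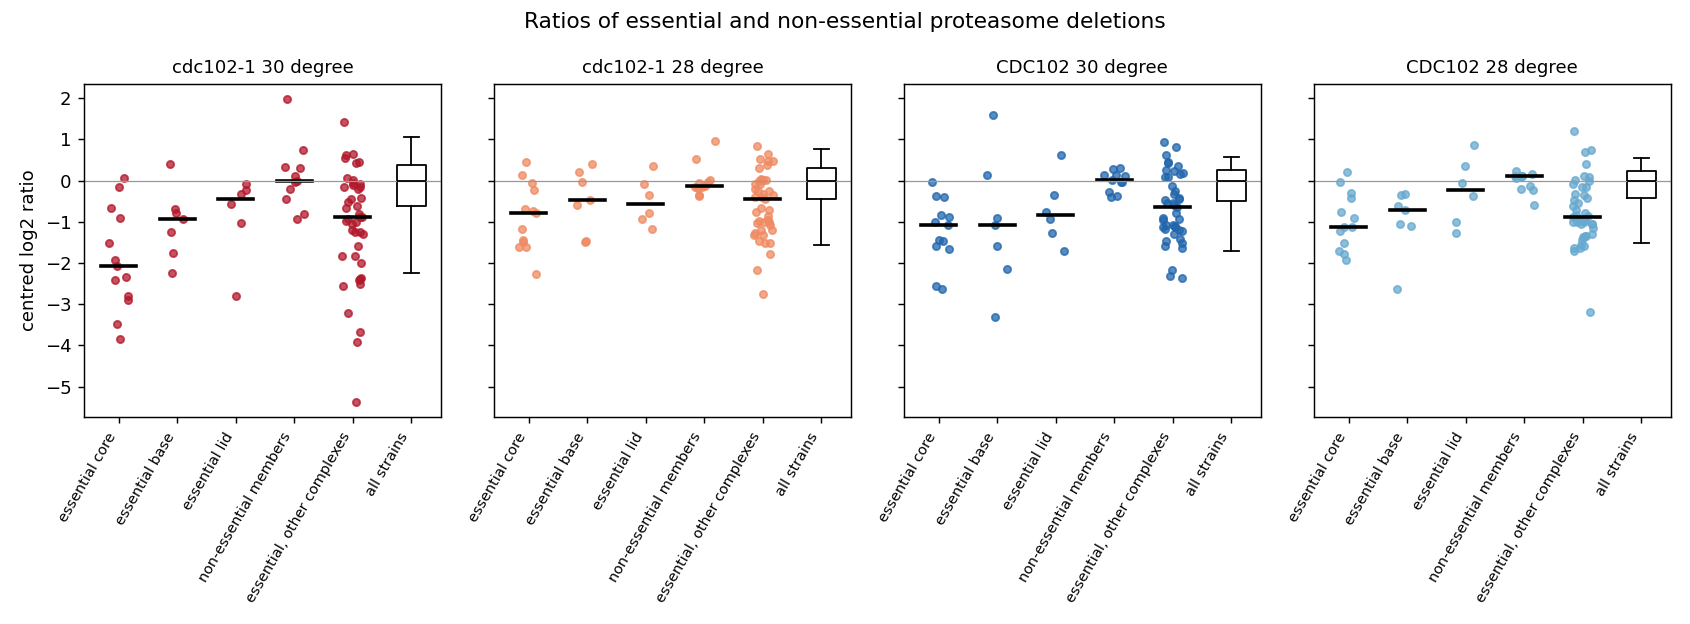
Centred log2 ratio (vertical axis) on each array for essential core (13), base (7) and lid (6) deletions, non-essential members (11), essential genes of other complexes (43) and all 5288 strains; dots are strains, black bars medians, and the box spans the quartiles with whiskers at the 5th and 95th percentile. Essential core deletions have medians from -2.08 to -0.79, and non-essential members from -0.14 to 0.10.

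By the mean over 4 arrays, the median level of essential members was lowest in the core and highest in the lid. The 13 essential core deletions had a median of -1.44, the 7 essential base deletions -0.93 and the 6 essential lid deletions -0.71. This order did not hold on each array: the base (-1.08) was below the core (-1.07) with CDC102 at 30 degree, and the lid (-0.58) below the base (-0.47) with cdc102-1 at 28 degree. In the core, base and lid 9, 3 and 1 of them averaged -1 or less. The groups overlapped, with means from -2.17 to -0.33 in the core, -1.54 to -0.15 in the base and -1.13 to -0.04 in the lid. These are descriptions of few strains, and no test was made between them.

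In the beta ring, PRE7 had the lowest mean of all members. Its values were -2.33 and -2.27 with cdc102-1 (30 and 28 degree), against -2.57 and -1.52 with CDC102. PUP3, also of the beta ring, followed at -3.85 and -1.18 with cdc102-1, against -1.59 and -1.72 with CDC102. Its first tag was at the lowest possible ratio (0.01) on the cdc102-1 array at 30 degree, where the second tag gave -1.33. PRE2, which carries the chymotrypsin-like protease site, had -2.79 and -1.49 with cdc102-1, against -0.89 and -1.93 with CDC102. PRE1 was the highest of the ring, with -0.15 and -0.07 with cdc102-1, against -0.37 and -0.76 with CDC102. PRE3, the carrier of the caspase-like site, had -0.67 and -0.24 with cdc102-1, against -0.83 and -0.03 with CDC102; it is the only member on chromosome X, where CDC102 lies. The carrier of the trypsin-like site, PUP1, had -1.52 and -0.70 with cdc102-1, against -1.66 and -1.13 with CDC102. All 7 beta-ring deletions, of catalytic and other subunits, had negative values on all 4 arrays.

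In the alpha ring, the deletions of PRE6 and PRE9 marked the ends of the range of the mean over 4 arrays. On single arrays PRE8 went lower (-3.47 with cdc102-1 at 30 degree) and PRE10 higher (0.44 with cdc102-1 at 28 degree). PRE6 had -2.08 and -1.61 with cdc102-1, against -1.02 and -1.77 with CDC102. PRE9, the only non-essential subunit of the core, had -0.45 and -0.15 with cdc102-1, against -0.38 and 0.12 with CDC102. Its tags gave close values, with a gap of 0.14 on the cdc102-1 array at 30 degree. The mean plasmid difference of PRE9 was -0.17 ± 0.21 (SE, 95% interval -0.79 to 0.46). SCL1 had -1.92 and -1.60 with cdc102-1, against -2.64 and 0.21 with CDC102, so that its lowest and its highest value both came from CDC102. Its second tag had no value with CDC102 at 30 degree, so -2.64 is of the first tag alone. With CDC102 at 28 degree the first tag gave -0.36 and the second 0.78. PRE5, PRE10 and PUP2 had means over 4 arrays of -1.44, -0.35 and -0.35.

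Among the remaining base ATPases, RPT6, RPT3, RPT1 and RPT5 had means over 4 arrays of -1.30, -1.14, -0.93 and -0.67, and all of their values were below 0. Of the remaining lid deletions, RPN12 was the lowest and the steadiest of the fully measured ones, at -1.04 and -0.93 with cdc102-1, against -1.27 and -1.27 with CDC102. RPN11, the deubiquitinating enzyme, had -0.09 and -1.18 with cdc102-1, against -0.75 and -0.38 with CDC102. RPN5 had a mean of -0.04 with a highest value of 0.87 with CDC102 at 28 degree. RPN9, the non-essential lid subunit, stayed between -0.59 and -0.18, and its 2 first-tag spots differed on the cdc102-1 array at 30 degree, where they gave -1.73 and 0.24. Whether these spots belong to 1 strain or to different strains of the gene is not given in the sources used here, so the RPN9 value may average different strains, as may that of BLM10. RPN7 had -0.53 with cdc102-1 at 28 degree, against -1.84 and -1.48 with CDC102 at 30 and 28 degree.

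**Figure D4:**
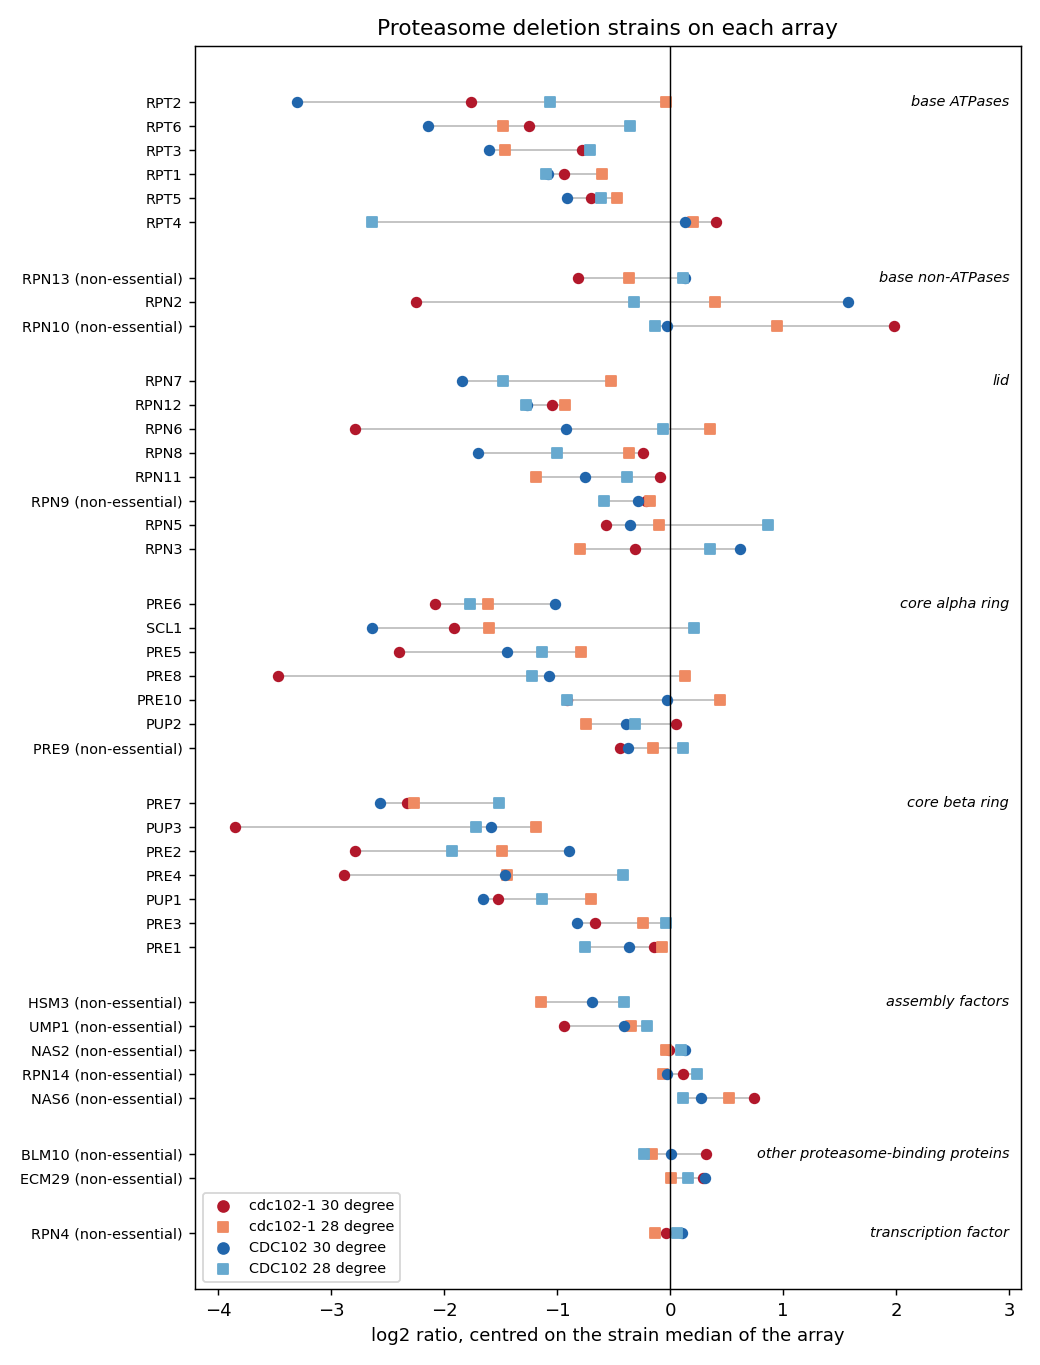
Centred log2 ratio (horizontal axis) of the 39 members with spots on each array, grouped by place in the proteasome and ordered by mean; red and orange are cdc102-1 at 30 and 28 degree, dark and light blue are CDC102 at 30 and 28 degree, and grey lines span each strain's range. Non-essential strains other than RPN10 keep within -1.15 and 0.74, and PUP3 of the beta ring has the lowest value, -3.85 with cdc102-1 at 30 degree.

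The assembly factors are all non-essential, and the 4 with values on all arrays had means between -0.48 and 0.41. NAS6, a chaperone of base assembly, was the highest, with 0.74 and 0.52 with cdc102-1 at 30 and 28 degree, against 0.27 and 0.11 with CDC102. Its groups did not overlap, as in 22.2% of all strains in that direction. Its mean plasmid difference was 0.44 ± 0.20 (SE, unadjusted limma p 0.108, adjusted p 0.609). NAS2 and RPN14, also base chaperones, had plasmid differences of -0.14 ± 0.20 and -0.08 ± 0.23. UMP1, which helps the core assemble and mature, was the lowest of those fully measured, with -0.94 and -0.35 with cdc102-1, against -0.41 and -0.21 with CDC102. HSM3, another base chaperone, had -1.15 with cdc102-1 at 28 degree, against -0.69 and -0.41 with CDC102 at 30 and 28 degree; its tags there gave -1.93 and -0.36 with cdc102-1, and 0.16 and -0.98 with CDC102 at 28 degree.

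Both proteasome-binding proteins gave values close to 0. ECM29, which tethers the core to the regulatory particle, had 0.29 and 0.00 with cdc102-1, against 0.31 and 0.16 with CDC102. BLM10, an alternative cap of the core, had 0.32 and -0.16 with cdc102-1, against 0.01 and -0.23 with CDC102. Their plasmid differences were -0.09 ± 0.20 and 0.19 ± 0.21 (SE). Apart from RPN10, the non-essential members had plasmid differences between -0.71 and 0.44.

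The spread between tags was wider in essential than in non-essential members. The median gap between the 2 tags of a strain was 1.29 and 0.98 in essential members with cdc102-1 at 30 and 28 degree, and 1.35 and 0.66 with CDC102. In non-essential members it was 0.62 and 0.12 with cdc102-1, and 0.23 and 0.43 with CDC102. Essential genes of other complexes had gaps of 0.96, 0.94, 0.91 and 0.72 on the same arrays, and all strains between 0.32 and 0.37. The range of a strain over the 4 arrays had a median of 1.43 in essential and 0.55 in non-essential members, against 0.60 over all strains. Of the plasmid differences at both temperatures, 11 of 26 essential members and 10 of 11 non-essential members had the same sign, as did 58.0% of all strains.

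The other comparison of the design set the ratios at 30 degree against those at 28 degree. For the temperature term, 0 members and 0% of all strains passed an adjusted p of 0.05 in limma. At an unadjusted p under 0.05 there were 4 of 37 members, all with a lower ratio at 30 degree, and 0 with a higher one. Of all strains 5.58% reached that p, 3.95% lower and 1.63% higher. The members were RPT2 (-1.98 ± 0.24, SE), RPN6 (-2.00 ± 0.66), PRE4 (-1.24 ± 0.23) and PUP1 (-0.68 ± 0.22), each with an adjusted p of 0.851. This count also moved with the array left out, in fits where temperature is the only term and plasmid differences enter. All 4 are essential, so the limit given above for ratios of essential deletions holds for each.

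The tags did not share the temperature differences of RPT2 and PUP1. For RPT2 the first tag differed by -1.81 with cdc102-1 and by -5.14 with CDC102, where the 30 degree spot is the one at the lowest possible ratio, and the second tag by -1.63 and 0.67. Its mean temperature difference was -0.41 without ratios of 0.05 or less and -0.49 with the second tag only. For PUP1 the first tag differed by -1.68 with cdc102-1 and 1.20 with CDC102, and the second by 0.03 and -2.26.

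RPN6 is a lid subunit that clamps the regulatory particle to the core. Its deletion had -2.79 at 30 degree and 0.35 at 28 degree with cdc102-1, and -0.92 and -0.06 with CDC102. Both 30 degree values lay below both 28 degree values, as in 16.8% of all strains. Each tag was lower at 30 degree with each plasmid, with differences from -4.37 to -0.33. PRE4 was likewise lower at 30 degree in each tag with each plasmid, with differences from -1.68 to -0.81. With PRE9, whose mean difference was -0.39 ± 0.21, these were 3 of 29 members lower at 30 degree in both tags throughout, against 9.58% of all strains. A higher ratio at 30 degree throughout was found for RPN3, RPN10, ECM29 and BLM10, 4 of 29 members against 12.2%. For RPN10 the second tag with CDC102 differed by only 0.003. That is less than the SD of its repeat spots there (0.03 at 30 and 0.06 at 28 degree), so this comparison shows no rise.

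RPN10 was higher at 30 degree by 1.03 with cdc102-1 and by 0.11 with CDC102. Its mean temperature difference was 0.57 ± 0.32 (SE, unadjusted limma p 0.167, adjusted p 0.914). Fits without 1 array had temperature as their only term, so the plasmid difference of RPN10 enters them. They gave -0.43 without the cdc102-1 array at 30 degree and 0.03 without CDC102 at 28 degree. Without cdc102-1 at 28 degree the value was 1.11, and without CDC102 at 30 degree 1.58. Because of the plasmid difference, these values cannot tell whether the direction of the temperature difference is stable. With cdc102-1 the first tag differed by 1.74 and the second by 0.33. Whether the plasmid effect on RPN10 differs between temperatures could not be tested with 1 array per group.

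Essential core deletions were mostly lower at 30 degree with cdc102-1. Of 13 such strains 12 were lower, with a median of -0.82, against 49% of all strains and a median of 0.01. With CDC102, 7 of 13 were lower, with a median of -0.09, against 51.3% of all strains. Deletions of essential genes in other complexes were lower at 30 degree in 29 of 43 with cdc102-1 and 21 of 43 with CDC102. The count of lower core strains with cdc102-1 was 9 of 12 with the first tag only, 5 of 10 with the second, 9 of 13 after quantile normalization, and 11 of 13 without spots at a ratio of 0.05 or less. Counted by size, 9 of 37 members were lower at 30 degree by at least 1 with cdc102-1 and 2 were higher, against 8.42% and 3.84% of all strains. With CDC102 there were 6 lower and 3 higher, against 4.82% and 2.97%. The 9 and the 6 lower members were all essential. Of the 43 deletions of essential genes in other complexes, 13 were lower by that size and 3 higher with cdc102-1. With CDC102 4 of these were lower and 7 higher. RPT2, whose tags had opposite signs with CDC102, and PRE4 were lower by at least 1 with both plasmids, as were 1.29% of all strains, and 0 members were higher with both, against 0.359%. Both 30 degree values lay below both 28 degree values in 12 of 37 members and above them in 2 (ECM29 and BLM10), against 16.8% and 14.3% of all strains. Of those 12, 10 were essential: RPT2, RPT5, RPN5, RPN6, PRE3, PRE4, PRE5, PRE7, PUP1 and SCL1. The others were PRE9 and UMP1. RPT5, RPN5, PRE5 and SCL1 each lacked a tag on a 30 degree array, so their values compare unlike sets of tags.

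A mean temperature difference of 1 or more was found for RPT4, and one of -1 or less for RPT2, RPN6, PRE4, PRE8, PUP3 and SCL1, against 1.42% and 4.67% of all strains. PRE8, PUP3 and SCL1 were the core strains with large temperature differences that failed the unadjusted p. The alpha-ring deletion of PRE8 had -3.47 at 30 degree and 0.13 at 28 degree with cdc102-1, and -1.07 and -1.23 with CDC102. With cdc102-1 its second tag differed by -5.93 and its first by -1.27. Mean temperature differences were -1.72 ± 1.05 for PRE8, -1.27 ± 0.79 for PUP3 and -1.58 ± 0.72 for SCL1 (SE). For PUP3 the first tag differed by -5.21 with cdc102-1, where its 30 degree spot is at the lowest possible ratio, and by 1.68 with CDC102. Its second tag differed by -0.13 and -1.43. For SCL1 the first tag differed by 1.47 with cdc102-1 and -2.27 with CDC102. Its second tag differed by -2.10 with cdc102-1 and had no value with CDC102 at 30 degree. For RPT4 the mean temperature difference was 1.48 ± 0.73, with the first tag present at 28 degree only; in the second tag it was -0.15 with cdc102-1 and 1.74 with CDC102.

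**Figure D5:**
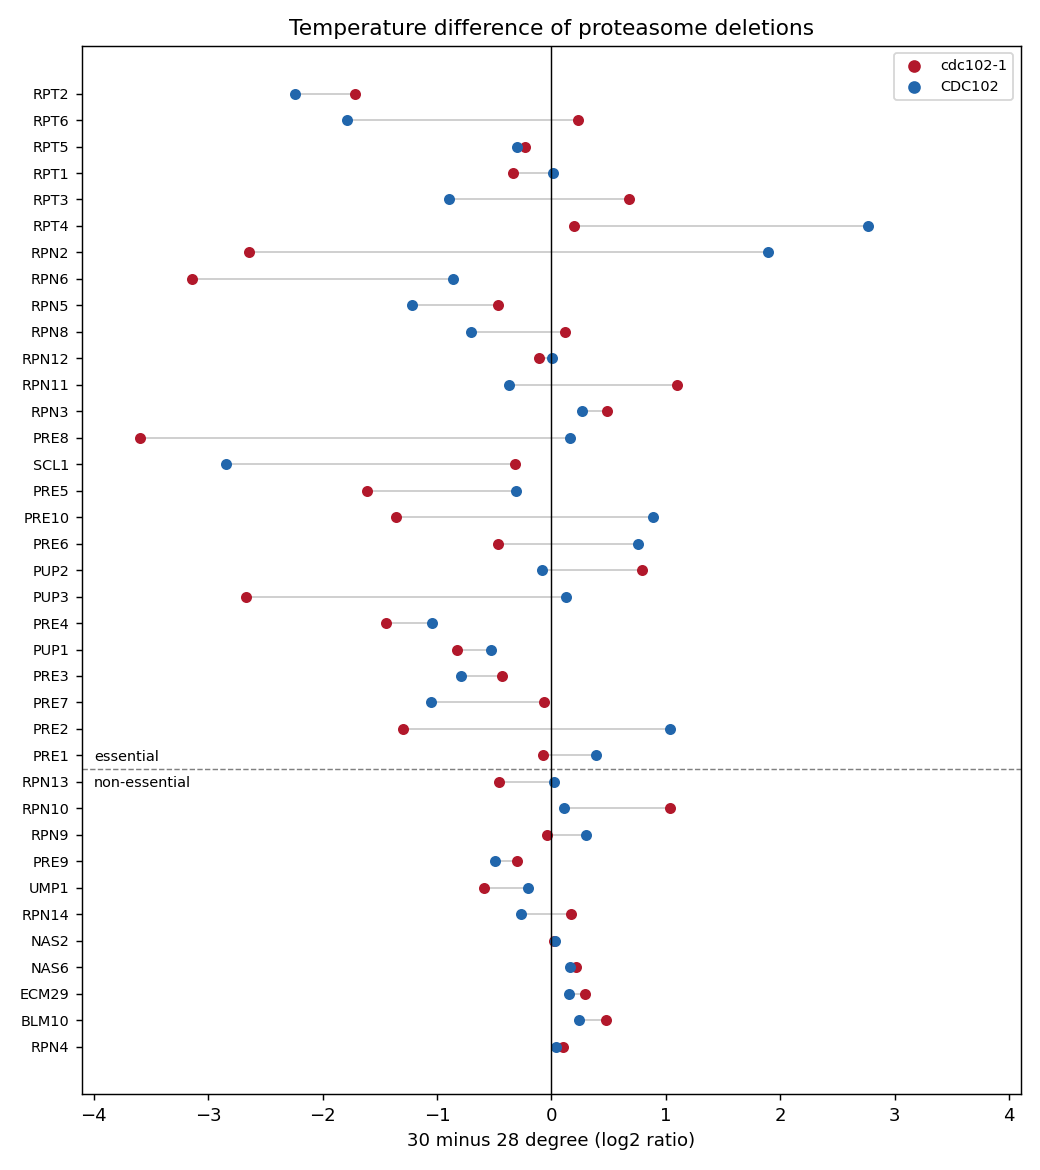
Difference in log2 ratio, 30 minus 28 degree (horizontal axis), of the 37 members on all arrays, with cdc102-1 (red) and CDC102 (blue); grey lines join both plasmids of a strain and the dashed line parts 26 essential from 11 non-essential members. Essential members range from -3.60 (PRE8 with cdc102-1) to 2.76 (RPT4 with CDC102), and non-essential members from -0.59 to 1.03.

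Genes that work with the proteasome were read from a separate list of 33: ubiquitin enzymes, shuttle factors, core chaperones and regulators, of which 31 had values on all arrays. For the plasmid term 0 passed an adjusted p of 0.05 in limma, and 3 of 31 had a higher and 0 a lower ratio with cdc102-1 at an unadjusted p under 0.05, against 5.35% and 3.39% of all strains. The median plasmid difference was 0.08. RAD23, a shuttle that brings ubiquitin chains to the proteasome, had 1.52 and 1.03 with cdc102-1 at 30 and 28 degree, against 0.59 and 0.25 with CDC102. UFD2, a ubiquitin chain elongation factor, had 1.48 and 0.78 with cdc102-1, against 0.57 and 0.11 with CDC102. FUB1, a core-binding protein, had 0.54 and 0.73 with cdc102-1, against -0.84 and -0.34 with CDC102. In each of these 3 both cdc102-1 values lay above both CDC102 values, as in 22.2% of all strains. The mean differences were 0.85 ± 0.20, 0.79 ± 0.21 and 1.23 ± 0.22 (SE), with a limma adjusted p of 0.553 each. For temperature, 1 of 31 was higher and 0 lower at 30 degree at an unadjusted limma p under 0.05. Of all strains 1.63% were higher and 3.95% lower at that p. The 1 strain was STS1, an essential gene needed to place proteasomes in the nucleus, higher by 1.22 ± 0.21 (SE, limma adjusted p 0.851). It had -1.30 at 30 degree and -2.39 at 28 degree with cdc102-1, and -0.82 and -2.16 with CDC102. Both 30 degree values were above both 28 degree values, as in 14.3% of all strains. The limit given above for ratios of essential deletions holds for STS1 too.

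SEM1, a small lid subunit outside the listed members, had 1.05 and 0.12 with cdc102-1, against 0.12 and 0.18 with CDC102. UBP6, a deubiquitinase bound to the base, had 0.51 and -0.21 with cdc102-1, against -0.59 and -0.03 with CDC102. For both, the difference at 30 degree (0.94 and 1.10) was not seen at 28 degree (-0.07 and -0.18), and the mean differences of 0.43 ± 0.34 and 0.46 ± 0.41 had unadjusted limma p of 0.285 and 0.333.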

How the data were processed

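Tags amplified from genomic DNA of pooled yeast strains were compared on 4 two-colour tag arrays, 1 per plasmid and temperature. Scans were made on a GenePix 4000B scanner and read with GenePix 5.1, per the labels' protocols. Each deposited value is the log2 of a dye ratio that the authors had rounded to steps of 0.01; the sources used here give neither its normalization nor its numerator. A ratio of 1000000, which stands in for a missing dye, was left out.

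Of 22575 spots 18794 carried a gene name. The first and second tag of a strain were told apart by their blocks of spot numbers, 10971 apart. Spots were averaged per strain and centred on the strain median. An additive limma fit (limma 3.58.1, R 4.3.3) with plasmid and temperature as terms ran on 5288 strains, with Benjamini-Hochberg adjustment over them. It had 1 residual degree of freedom and 2.30 prior ones. The fit was also run on simulated data, with independent noise drawn from the spread that the fit itself estimates. Those data held no disagreement between tags, no spots at the lowest ratio and no plasmid difference that changes with temperature. They cannot tell how the fit handles these. Fits without 1 array had plasmid or temperature as their only term, so the other enters their estimates. They pool the spread over strains.

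Members and lists were chosen with earlier results of these data known. Values on each array were given for members with an unadjusted p under 0.05, a mean difference of at least 1 in size, the ends of each subunit group, RPN4, SEM1 and UBP6; PRE2, PRE3, PRE8, PRE9, RPN7, RPN11, HSM3, UMP1, ECM29 and BLM10 were shown whether or not they met this. Alternatives changed centring, normalization, spot summary, tag, tag agreement, ratio floor, missing values, prior, second term and the arrays used.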

Additional observations from a re-analysis of the deposited data

Results flagged for a closer look

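In 3 members the same contrast had opposite signs in its 2 pairs of arrays, each by at least 1 on the log2 scale. With 1 array per group the difference between the 2 effects was not tested. All 3 members are essential, so their ratios are not a measure of a double mutant. The RPN2 deletion had a temperature difference (30 minus 28 degree) of -2.64 with cdc102-1 and 1.90 with CDC102. In its second tag these were -6.22 and 3.89, and in its first 0.94 and -0.10. The PRE2 deletion had temperature differences of -1.30 with cdc102-1 and 1.04 with CDC102, with the same pair of signs in each tag. The PRE8 deletion had a plasmid difference (cdc102-1 minus CDC102) of -2.40 at 30 degree and 1.36 at 28 degree, again with the same signs in each tag. Of all strains 1.27% had opposite temperature differences of that size and 0.908% opposite plasmid differences.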

How the results depend on the processing

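No paired analysis was possible because the groups share fewer than 2 replicate numbers, each having 1 array; the additive fit itself sets the plasmids side by side within each temperature, and without its second term 4 members reached an unadjusted p under 0.05 for plasmid and 4 for temperature. No strain passed an adjusted p of 0.05 for temperature under any alternative. For plasmid 1 strain did, GET2 (2.68 ± 0.17, SE, adjusted p 0.0364 in limma), when the fit was limited to strains whose tags differ by under 1; that setting keeps 9 members. The number of members at an unadjusted p under 0.05 for plasmid was 3 with the second tag only, and 2 to 8 without 1 array. For temperature it was 0 in the 9 members whose tags differ by under 1, whose median difference was 0.16, and 0 to 8 without 1 array. The cause was not tested. The median plasmid difference was -0.21 to 0.07 and the median temperature difference -0.33 to -0.14 without 1 array. The plasmid difference of RPN2 was 0.50 with the first tag only. That of RPT2 was -1.17 with the second tag only and -0.29 without ratios of 0.05 or less, where a spot at the lowest ratio is removed. The plasmid difference of RPN10 was 1.03 to 2.06 and its temperature difference -0.43 to 1.58 over 15 alternatives. Both ends of each range came from fits without 1 array. With 1 array per group and mostly 1 spot per tag, the number of arrays limits the precision.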
